A study of Rattus norvegicus with 3 samples.

Results

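The synaptic vesicle and SNARE genes are the genes that load, dock, fuse and recycle the vesicles from which neurons release transmitter. They were chosen by gene symbol alone, as the synaptotagmins, synapsins, syntaxins, syntaxin-binding proteins, vesicle-associated membrane proteins (Vamp), Snap proteins, complexins, Rims, Unc13, Sv2 and synaptogyrin families together with Syp, Bsn, Pclo, Nsf, Napa, Napb and Napg. The rule found 79 genes among the 30957 listed, each on 1 row, and 74 of them had a mean of 1 FPKM or more. FPKM is the number of fragments per kilobase of gene per 1000000 fragments. By textbook knowledge, 40 of the 79 were put in a neuronal class and 24 in a ubiquitous class of relatives not confined to neurons. Another 2 were put in a blood cell class and 13 in a class of mixed or uncertain expression. Not all of the 24 are made in every cell, since Stxbp2 among them serves blood cells and epithelia. The split is an assignment by symbol and is not a measurement.

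The mRNA came from 3 male rats of the Sprague-Dawley strain, numbered 19, 35 and 70. Motor cortex was taken from each after cerebral ischemia and reperfusion, in which blood flow to the brain stops and then returns. All carry the label 8 weeks, which does not say whether it is an age or a time after the operation. The rats form 1 group and no control animals were analysed here, so the comparisons are between neuronal and ubiquitous relatives within each rat, and between rats as replicates. Separate animal numbers were taken to mean separate animals. An effective 15550000, 16460000 and 16060000 fragments stood behind the values of rats 19, 35 and 70, and a gene of 1 kb at 1 FPKM rested on 15.6, 16.5 and 16.1 fragments.

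In a nerve terminal, the vesicle SNARE synaptobrevin zippers with syntaxin and SNAP-25 of the plasma membrane. Munc13 proteins help to set up this complex, complexins hold it, and synaptotagmins trigger fusion when calcium enters. NSF and its attachment proteins then take the SNAREs apart. Every cell runs the same machine for its Golgi, endosomes and plasma membrane with other members of the same families. These relatives were set beside the neuronal members within each library. They are no fixed reference, since Nsf among them was at 198, 21.8 and 238 FPKM in rats 19, 35 and 70.

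The start regions of 4 members are shown because both classes can be seen side by side in them. They are the 250 bases before a RefSeq transcript start, from the GRCr8 assembly, 5′ to 3′, and capitals mark matches on either strand to CAGCACC, a piece of the RE1 element bound by the repressor REST, to TGACGTCA, the cAMP response element, and to GGGCGG, the GC box. Syn1 and Syp are neuronal, and Snap23 and Stx4 ubiquitous. They lie at chrX:3725495-3725744 (plus strand), chrX:17536450-17536699 (minus), chr3:127967636-127967885 (plus) and chr1:191881817-191882066 (plus).
Syn1: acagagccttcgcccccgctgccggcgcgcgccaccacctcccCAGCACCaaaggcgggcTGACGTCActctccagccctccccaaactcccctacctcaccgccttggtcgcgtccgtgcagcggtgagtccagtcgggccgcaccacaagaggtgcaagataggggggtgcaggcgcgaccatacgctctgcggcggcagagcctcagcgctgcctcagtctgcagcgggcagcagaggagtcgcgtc
Syp: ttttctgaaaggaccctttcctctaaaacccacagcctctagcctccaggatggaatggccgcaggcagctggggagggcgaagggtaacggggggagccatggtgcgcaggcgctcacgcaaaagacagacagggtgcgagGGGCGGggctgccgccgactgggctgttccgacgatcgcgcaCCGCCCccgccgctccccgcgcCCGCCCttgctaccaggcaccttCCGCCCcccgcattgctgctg
Snap23: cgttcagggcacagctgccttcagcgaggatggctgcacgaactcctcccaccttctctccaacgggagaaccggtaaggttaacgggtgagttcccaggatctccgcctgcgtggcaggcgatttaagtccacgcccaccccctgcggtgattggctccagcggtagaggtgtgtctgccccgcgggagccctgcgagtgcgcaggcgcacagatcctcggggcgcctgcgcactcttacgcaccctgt
Stx4: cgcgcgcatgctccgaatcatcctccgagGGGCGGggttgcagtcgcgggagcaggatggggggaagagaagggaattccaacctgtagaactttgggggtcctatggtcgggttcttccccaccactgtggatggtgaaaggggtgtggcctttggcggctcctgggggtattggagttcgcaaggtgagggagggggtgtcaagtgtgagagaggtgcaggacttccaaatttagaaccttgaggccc

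Of the 79 members, 62 had an entry in that promoter table and 59 had a single window. GGGCGG lay in 18 of 27 neuronal windows (66.7%) and 16 of 22 ubiquitous windows (72.7%), against 33.6% of 24206 windows of all genes. CAGCACC lay in 4 neuronal windows (Bsn, Sv2b, Syn1 and Syt4, 14.8%) and 1 ubiquitous window (Stx18, 4.55%), against 5.51% of all. TGACGTCA lay in Syn1, Vamp1 and the ubiquitous Napa, and in 1.72% of all windows. The median number of CpG was 15 in neuronal and 17.5 in ubiquitous windows, against 6 in all. These letter matches are descriptions of the windows and were not tested.

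The neuronal members were low in rat 35. Every one of the 38 neuronal members at a mean of 1 FPKM or more was lowest there, where 36.5% of 14134 genes tested were. The ubiquitous members had no such order, since 7 of 24 had their lowest value in rat 35 and 13 of 24 their highest, against 45.4% of all genes. In rat 70, 12 of 24 ubiquitous members had their lowest value, against 44.2% of all genes. Fewer cells of a type and less RNA per cell cannot be told apart in bulk tissue. Against rat 70, 35 of 38 neuronal members were over 2-fold lower in rat 35, where 17% of all genes were, and against rat 19, 34 of 38, where 14.3% were. Of 24 ubiquitous members, 5 were over 2-fold higher in rat 35 than in rat 70 (19.9% of all genes) and 4 than in rat 19 (11.7%). Over 2-fold lower in rat 35 were 4 against rat 70 (17% of all genes) and 2 against rat 19 (14.3%). Both ubiquitous counts against rat 70 are near the shares of all genes. These contrasts share rat 35, and each fold is of FPKM + 1. The plot of members shows wider ranges between rats for most neuronal genes than for most ubiquitous genes. Nsf, at 10.95-fold, and Stxbp2, at 7.00-fold, had the widest ranges of the ubiquitous genes.

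**Figure D1:**
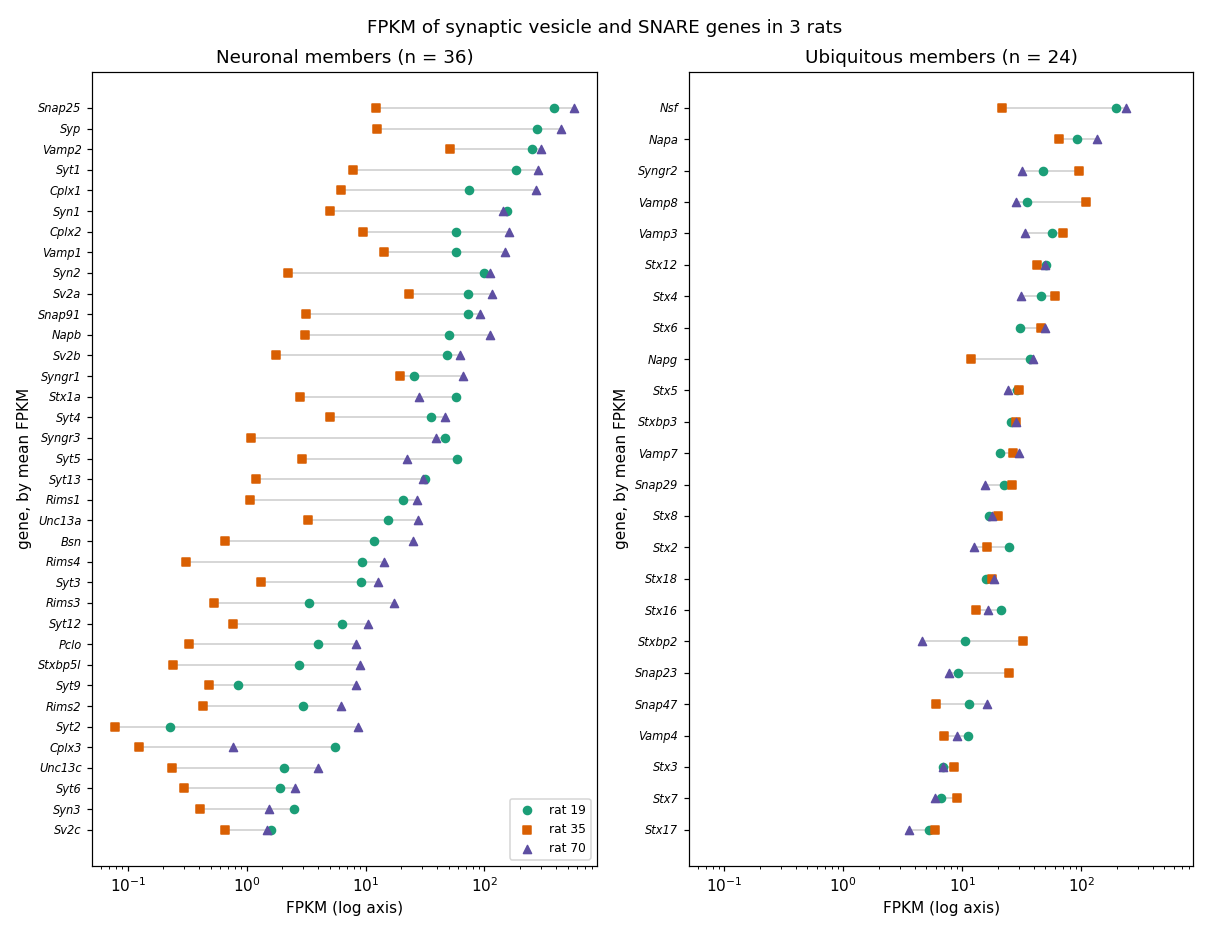
FPKM on a log axis for 36 of the 38 neuronal (left) and all 24 ubiquitous (right) members with a mean of 1 FPKM or more, 1 point per rat, joined by a grey line from lowest to highest. All 36 squares of rat 35 are the leftmost point of their line on the left, and 7 of 24 are on the right.

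The distance between rats was measured as highest minus lowest log2(FPKM + 1), a scale that understates differences of low genes. It passed 2-fold in 37 of 38 neuronal and 9 of 24 ubiquitous members, where 42.5% of all genes did. The ubiquitous share of 37.5% is near that background. On this scale the median distance was 3.43 for neuronal members, 0.69 for ubiquitous members and 0.86 over all genes. The median fold of FPKM itself, without the added 1 and leaving out exact zeros, was 22.97, 1.66 and 1.99 in the same order. Without rat 35 the counts past 2-fold were 13 for neuronal and 1 for ubiquitous members. Sv2c, the minor and subcortical form of the vesicle glycoprotein, was the neuronal member short of 2-fold by log2(FPKM + 1). It was at 1.61, 0.66 and 1.49 FPKM in rats 19, 35 and 70, which are up to 2.45-fold apart as plain FPKM.

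Summed over each class, neuronal members reached 2348, 222 and 3538 FPKM in rats 19, 35 and 70, and ubiquitous members 831, 797 and 856 FPKM. The neuronal sum averaged 2036 ± 1680.0 FPKM and the ubiquitous sum 828 ± 29.6 FPKM (SD, n = 3). The median log2(FPKM + 1) was 5.12, 1.58 and 4.91 for neuronal and 4.62, 4.72 and 4.48 for ubiquitous members in the same order of rats. The neuronal minus the ubiquitous median was therefore 0.50, -3.14 and 0.43, higher for neuronal members in rats 19 and 70 and lower in rat 35. As deviations from each gene's own mean over the rats, the neuronal median was 0.66, -1.93 and 1.36, the ubiquitous median 0.01, 0.13 and -0.06 and that of all genes 0.02, 0.06 and -0.09. Without rat 35, the neuronal median was -0.30 in rat 19 and 0.30 in rat 70. The ubiquitous medians lay near 0, and that of each rat changed sign under at least 1 of the 3 other scalings.

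These values stand beside a change in the markers of cells. All 12 of 12 pan-neuronal markers outside the rule were lowest in rat 35, with summed levels of 1564, 118 and 2169 FPKM in rats 19, 35 and 70 and none at 0. The 10 microglia and macrophage markers were all highest in rat 35 (1155, 3283 and 787 FPKM summed, none at 0). Of 6 fibroblast markers, 5 reached a mean of 1 FPKM and all 5 were highest there (255, 2764 and 249.6 FPKM summed), with Col1a2 listed at 0 in every rat. Astrocyte markers summed to 3043, 1005 and 1883 FPKM, oligodendrocyte markers to 4353, 3664 and 5736, endothelial markers to 148, 220.4 and 108, and leukocyte markers to 29.7, 229 and 25.7, with Cd3d and Mpo at 0 in at least 1 rat. The part of these cell types in the members' values was not tested.

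**Figure D2:**
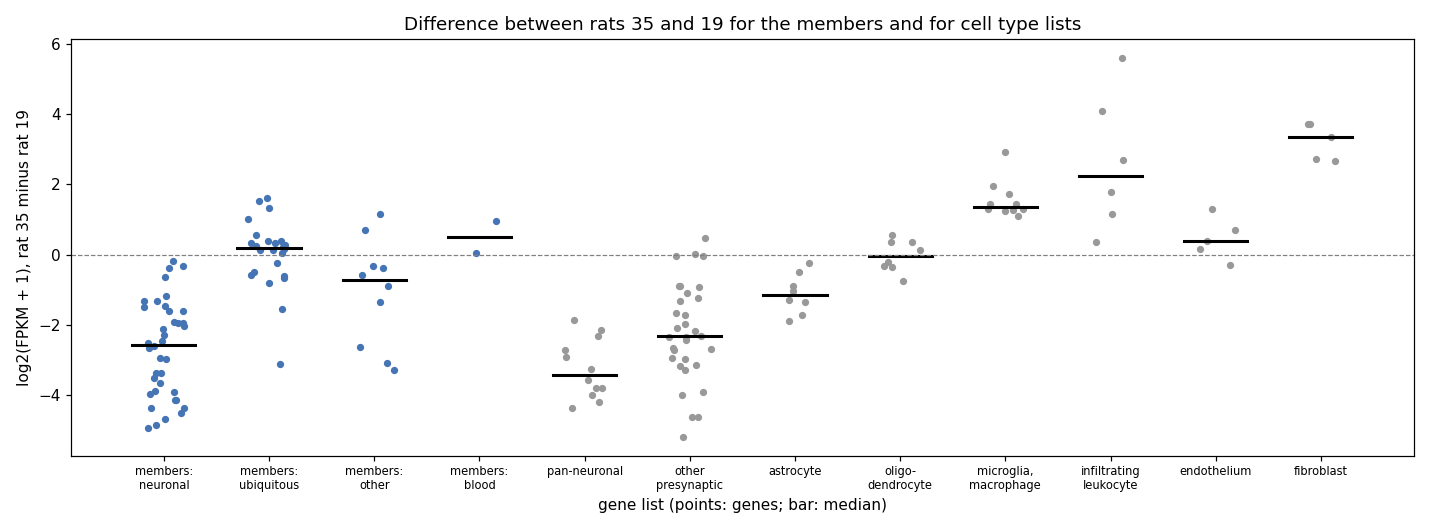
Difference in log2(FPKM + 1), rat 35 minus rat 19, for each gene at a mean of 1 FPKM or more (points) with the median (bar), for the member classes in blue and the marker lists in grey. The neuronal members have a median of -2.57 and the pan-neuronal list of -3.42, while the ubiquitous members have a median of 0.18.

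The fusion SNAREs showed the contrast within single families. Snap25, the plasma membrane SNARE of neurons that botulinum toxin A cuts, was at 383, 12.2 and 564 FPKM in rats 19, 35 and 70. Snap23, its relative in most other cells, was at 9.24, 24.7 and 7.68. The pair ran in opposite directions, and in rat 35 alone Snap23 was the more abundant of them. Their FPKM ratio was 41.4, 0.49 and 73.5. The other SNAP relatives were nearer to each other across rats, with the autophagy and endosome form Snap29 at 22.5, 26.01 and 15.5 FPKM and Snap47 at 11.3, 6.01 and 16.2.

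Vamp2, the main synaptobrevin of forebrain synapses, was at 252, 51.0 and 297 FPKM in rats 19, 35 and 70. It was lowest in rat 35 but kept a far higher level there than Snap25. Vamp3, or cellubrevin, was at 56.6, 70.8 and 33.4 FPKM, and the ratio of Vamp2 to Vamp3 was 4.45, 0.72 and 8.87. Vamp1, the synaptobrevin of fast synapses and of the brainstem, was at 57.8, 14.4 and 149 FPKM, so that rats 19 and 70 also lay apart. Vamp8, a SNARE of endosomes and of secretion outside neurons, was highest in rat 35 at 35.3, 111 and 28.5 FPKM. Vamp5, a member of uncertain class with its own gene 17741 bp from Vamp8 on chromosome 4 (Rnor 6.0), had the same order at 11.8, 27.2 and 7.33 FPKM. Vamp4 (11.1, 7.00 and 9.03 FPKM) and Vamp7 (20.7, 26.5 and 30.1) lay within 2-fold.

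Stx1a, a syntaxin of central synapses, was at 58.0, 2.79 and 27.9 FPKM in rats 19, 35 and 70, lower in rat 70 than in rat 19. Stx4, a plasma membrane syntaxin of all cells, was at 45.6, 59.7 and 31.1 FPKM. It was highest in rat 35, where Stx1a was lowest. None of the 11 ubiquitous syntaxins differed by 2-fold between rats. Stx12, of recycling endosomes, was at 50.2, 42.5 and 49.8 FPKM (SD 0.13 on the log2 scale, n = 3). Among members with a mean of 5 FPKM or more, Stx18 of the endoplasmic reticulum (15.7, 17.7 and 18.7 FPKM), Stx8 of late endosomes (16.7, 20.01 and 17.8) and Stx5 of the Golgi (29.02, 30.1 and 24.2) were with it among the 5 of smallest SD.

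The syntaxin partners had no common order across rats. Stxbp3, a partner of Stx4 in most cells, was at 25.8, 28.5 and 28.2 FPKM in rats 19, 35 and 70 and had the smallest SD (0.077 on the log2 scale, n = 3) of the members at a mean of 5 FPKM or more. The highest and lowest rats were 1.11-fold apart. Stxbp2, which serves blood cells and epithelia, was highest in rat 35 at 10.6, 32.3 and 4.62 FPKM. The tomosyns, which hold SNAREs in unproductive complexes, were both lowest in rat 35 and highest in rat 70. The neuronal Stxbp5l was at 2.77, 0.24 and 9.06 FPKM. The less restricted Stxbp5, of the class of mixed or uncertain expression, had a narrower range at 20.9, 15.7 and 29.7 FPKM.

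**Figure D3:**
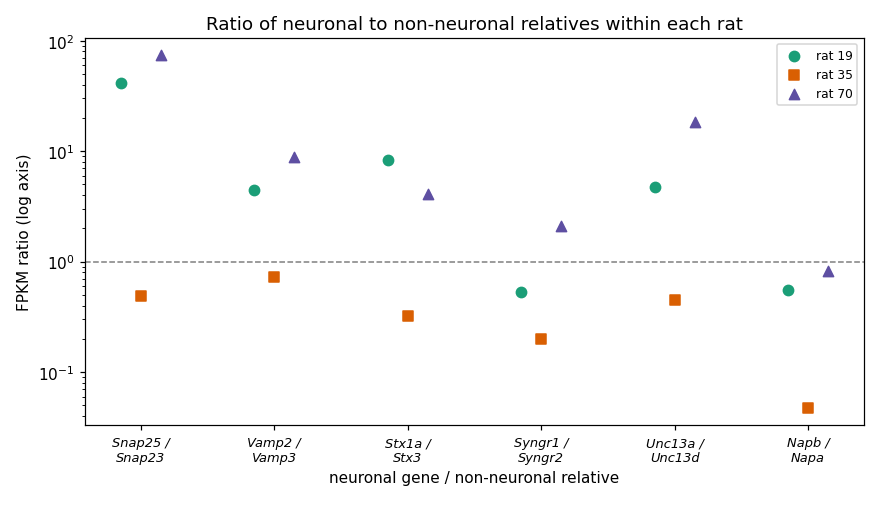
FPKM ratio (log axis) of a neuronal gene to its non-neuronal relative in each rat, for 6 pairs, with the dashed line at a ratio of 1. Rat 35 is the lowest point in all 6 pairs and lies below 1 in all of them, from 0.05 for Napb over Napa to 0.72 for Vamp2 over Vamp3.

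Across 6 such pairs, the ratio was lowest in rat 35 in each. Stx1a over Stx3 was 8.37, 0.32 and 4.06 in rats 19, 35 and 70, Unc13a over Unc13d 4.75, 0.45 and 18.3, and Syngr1 over Syngr2 0.53, 0.20 and 2.09. An exact permutation test that flips the signs of the log2(FPKM + 1) differences of the 3 rats (two-sided, smallest possible p 0.25) gave p between 0.25 and 0.75 for a neuronal excess or deficit, and the Benjamini-Hochberg values over the 8 pairs tested were 0.67 to 0.86. The design could not reach 0.05. The spread over rats was as large as the means themselves, for Snap25 over Snap23 3.43 ± 3.83 (log2, SD, n = 3, positive in 2 of 3 rats) and for Vamp2 over Vamp3 1.59 ± 1.85 (2 of 3). Without rat 35, the mean for Syngr1 over Syngr2 was 0.079 in place of -0.70.

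As a share of the summed FPKM of each family, the neuronal genes gave the same order. Snap25 made up 89.9%, 17.7% and 93.5% of the SNAP SNAREs in rats 19, 35 and 70, and Vamp1 with Vamp2 69.5%, 21.2% and 80.4% of the Vamp genes. Napb was 28.2%, 3.85% and 38.9% of the soluble NSF attachment proteins. The ubiquitous class thus held most of that family in every rat. Syngr1 with Syngr3 was 60.2%, 17.5% and 76.8% of the synaptogyrins, and Unc13a with Unc13c 65.05%, 23.9% and 82.7% of the Munc13 genes. These shares have SDs of 18.0 to 42.8 percentage points over 3 rats.

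**Figure D4:**
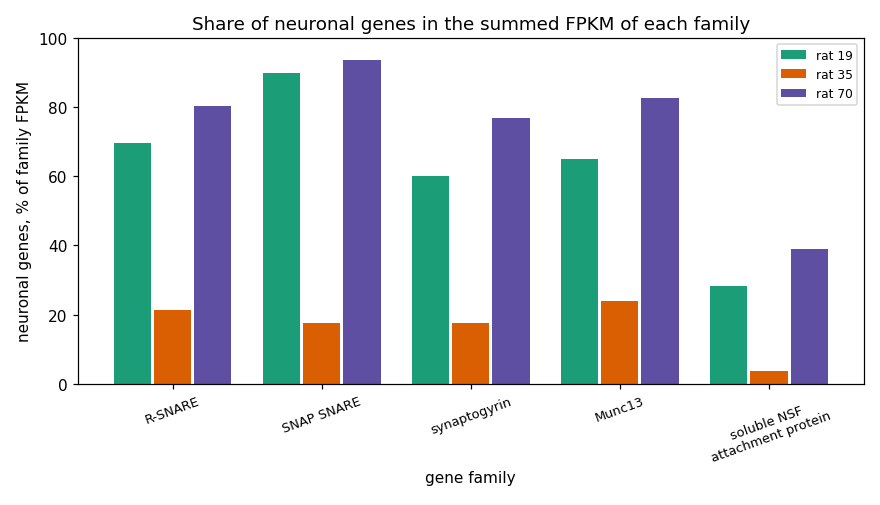
Neuronal genes as a percent of the summed FPKM of their family in each rat, for 5 families. Rat 35 has the lowest bar in every family, from 3.85% in soluble NSF attachment proteins to 23.9% in Munc13 genes.

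Synaptotagmins include the calcium sensors of release. All 14 at a mean of 1 FPKM or more were lowest in rat 35, against 36.5% of all genes. They were 9 of the neuronal class and 5 of the class of mixed or uncertain expression. Syt2, Syt9 and Syt14 reached that mean only through rat 70. Of the synaptotagmins below it, Syt10 was lowest in rat 35, while Syt8 and Syt15 were highest there. Syt1, the sensor of fast release at forebrain synapses, was at 183, 7.79 and 284 FPKM in rats 19, 35 and 70. Syt11, which binds no calcium and is also made by glia, had the highest mean of the synaptotagmins at 146, 56.1 and 282 FPKM. It was above Syt1 in rat 35 and at nearly the same level in rat 70. Syt4, a synaptotagmin of dense-core vesicles, was at 35.8, 5.06 and 46.8 FPKM, and Syt7, the slow sensor, at 23.5, 1.86 and 53.6 FPKM. Syt5 was at 58.9, 2.94 and 22.1 and Syt17 at 17.5, 0.90 and 8.28 FPKM, both highest in rat 19. The others at a mean of 1 FPKM or more were Syt3, Syt6, Syt12, Syt13, Syt14, Syt16, Syt9 and Syt2, with 0.08 to 1.32 FPKM in rat 35.

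At the active zone, vesicles are docked and primed. All 8 of its neuronal genes had their lowest value in rat 35 and their highest in rat 70. Over all 38 neuronal members, 30 were highest in rat 70 and 8 in rat 19, against 29.8% and 24.8% of all genes. Syt2 and Syt9 reached the minimum mean of 1 FPKM only through rat 70, and Cplx3 and Syn3 only through rat 19. Rims1, a scaffold that gathers calcium channels and vesicles, was at 20.6, 1.07 and 27.01 FPKM in rats 19, 35 and 70. Unc13a, or Munc13-1, the priming factor of glutamate synapses, was at 15.5, 3.28 and 27.5 FPKM. The giant scaffold Bsn was at 11.7, 0.66 and 24.9 and Pclo at 3.999, 0.33 and 8.23 FPKM. Unc13d, which primes granules of blood cells, had the reverse order at 3.27, 7.34 and 1.503 FPKM. Unc13b, which is made in and outside the brain, lay between them at 6.19, 3.83 and 5.08 FPKM.

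Complexins clamp and promote fusion, and the 3 at a mean of 1 FPKM or more were lowest in rat 35. Cplx1 was at 74.0, 6.25 and 269.6 FPKM in rats 19, 35 and 70, and Cplx2 at 57.5, 9.58 and 161 FPKM. Both were over 2-fold higher in rat 70 than in rat 19. Cplx3, a form of ribbon synapses and of deep cortical layers, was at 5.51, 0.13 and 0.77 FPKM, highest in rat 19.

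Proteins of the vesicle itself had some of the widest ranges. Syp, synaptophysin, was at 276, 12.47 and 439.9 FPKM in rats 19, 35 and 70. Syn1 and Syn2, the synapsins that tether the reserve pool, were at 156, 5.05 and 144 and at 98.9, 2.23 and 111 FPKM. With Snap25 and Syt1, these 3 were the members of largest SD among those at a mean of 5 FPKM or more. Sv2a, the target of levetiracetam, was less low in rat 35 at 72.1, 23.03 and 116.5 FPKM, while its relative Sv2b was at 48.2, 1.76 and 61.7 FPKM. Syngr1 was at 25.3, 19.4 and 66.05 FPKM, and rats 19 and 35 lay closer to each other than to rat 70. Syngr3 was at 47.0, 1.10 and 39.4 FPKM, and the ubiquitous Syngr2 ran the other way at 47.5, 96.5 and 31.6 FPKM. Snap91, or AP180, a clathrin adaptor that retrieves vesicle proteins and shares only its symbol with the SNAP SNAREs, was at 72.7, 3.15 and 92.1 FPKM.

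Of the 9 ubiquitous members past 2-fold, 5 were highest in rat 35 (Vamp8, Vamp3, Stxbp2, Snap23 and Syngr2) and 4 were lowest there, Snap47 and all 3 ubiquitous disassembly genes. Nsf, the ATPase that separates SNAREs, was at 198, 21.8 and 238 FPKM in rats 19, 35 and 70. Napa, alpha-SNAP, was at 92.2, 65.6 and 136 FPKM, and Napg at 37.0, 11.95 and 39.5 FPKM. Nsf had the widest range of all ubiquitous members (3.39 on the log2 scale). Napb, beta-SNAP of the brain, was at 50.7, 3.10 and 112 FPKM. Napb was below Napa in every rat, with a ratio of 0.55, 0.05 and 0.82, and this pair was the one with 1 direction in all 3 rats (exact sign-flip p = 0.25, adjusted 0.67).

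Set against neurons at large, the neuronal members were not all equally low. The median log2 difference of the pan-neuronal markers was -3.42 for rat 35 minus rat 19 and -3.91 for rat 35 minus rat 70. That of the neuronal members was -2.57 and -3.23, and 13 of 38 lay below the marker median in each contrast. Syn2 differed by -4.95 between rats 35 and 19 and Snap25 by -4.87, while Sv2a differed by -1.60 and Vamp2 by -2.28. These are differences of log2(FPKM + 1), which shrinks those of low members. Of 32 other presynaptic genes measured, 30 were lowest in rat 35, against 36.5% of all genes, and 28 passed 2-fold between rats, against 42.5%. Among them, Rab3a was at 244, 15.1 and 303 FPKM in rats 19, 35 and 70. Slc17a7, the vesicular glutamate transporter, was at 324, 12.2 and 383 FPKM.

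Rats 19 and 70 also differed from each other at some members. By log2(FPKM + 1), 10 of the 38 neuronal members were over 2-fold higher in rat 70 than in rat 19, against 4.84% of all genes. Over 2-fold lower were 3, against 6.11%. Syt2 and Syt9 are among the 10 and Cplx3 among the 3. With rat 70 left out, Syt2 and Syt9 fell below a mean of 1 FPKM, as did Cplx3 without rat 19. These genes thus entered the counts only through the rat where they were high. Of the 24 ubiquitous members none was over 2-fold higher and 1, Stxbp2, was lower. Syt2, the fast sensor of brainstem and of parvalbumin interneurons, was at 0.23, 0.08 and 8.67 FPKM in rats 19, 35 and 70, far higher in rat 70 than in the others. Syt9 was at 0.85, 0.48 and 8.32 and Rims3 at 3.32, 0.53 and 17.2 FPKM. In rats 19 and 35, the values of Syt2 are too low to rest on many fragments. The 3 genes lower in rat 70 were Cplx3, Syt5 and Stx1a, and the difference of the median neuronal member was 0.60 (log2), beside 0.57 for pan-neuronal markers.

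**Figure D5:**
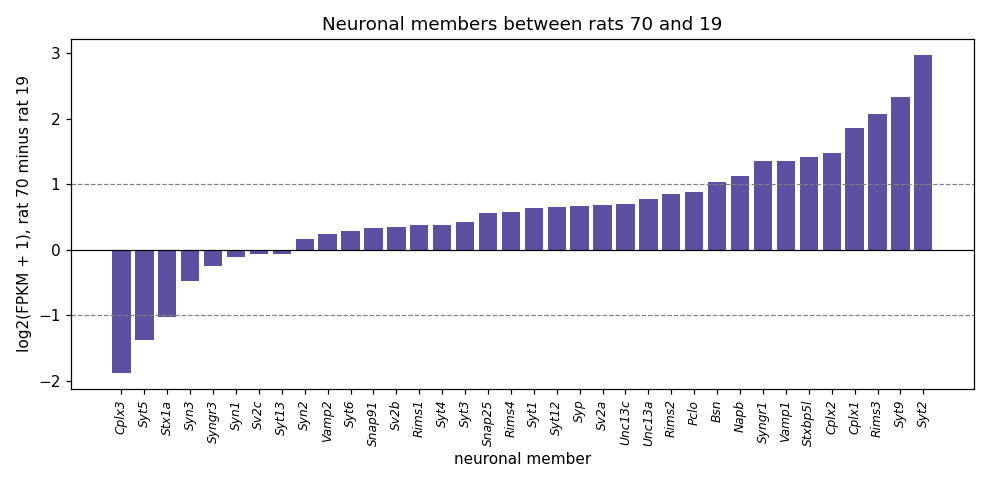
Difference in log2(FPKM + 1), rat 70 minus rat 19, for 36 of the 38 neuronal members, with dashed lines at 2-fold. The bars run from -1.88 for Cplx3 to 2.98 for Syt2, and 10 pass the upper and 3 the lower line. Syt2 and Syt9 reached the minimum mean of 1 FPKM only through rat 70, and Cplx3 only through rat 19.

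Some of the remaining members were scarce. Below a mean of 1 FPKM were Syt8, Syt10, Syt15, Syngr4 and Cplx4, a complexin of the retina, with no value above 0.92 FPKM, and Syt10 was listed at 0 in rat 35. Among members in the range of 1 to 5 FPKM, Syn3 was at 2.53, 0.40 and 1.54, Rims2 at 2.96, 0.43 and 6.18 and Unc13c at 2.07, 0.24 and 3.998 FPKM in rats 19, 35 and 70, all lowest in rat 35. Stx11, a syntaxin of blood cells, was at 1.32, 1.40 and 0.57 FPKM, lowest in rat 70.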

How the data were processed

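Messenger RNA was sequenced from motor cortex of 3 rats (1 group). Per the labels' design text, the authors' FPKM came from a Perl script run on fragment counts after a normalization, whose kind the labels do not name. The deposited FPKM were used unchanged. HISAT2 2.0.4, StringTie 1.3.0 and the build Rnor 6.0 are named, without roles, in the submitters' processing notes.

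Members were found by symbol. The members, classes, pairs and lists were chosen with earlier results of these data known. Values were taken as log2(FPKM + 1) over the 14134 genes that average at least 1 FPKM (Python 3.11.15, pandas 2.3.3, numpy 2.4.6). The effective depth was read from the spacing of low values, since a value resting on 1 fragment is a whole number of bases under a constant. The steps were tested on simulated data. Named in full were both genes of each pair given, the 3 most abundant members of each role, and the 5 members with the largest and the 5 with the smallest SD at a mean FPKM of 5 or more. Any other member could be named. Lists and counts are descriptions with no test. The 8 pair ratios were tested with an exact sign-flip permutation test. Of these, 6 are given, since some genes are not reported here, although class sums and counts hold all members. Alternatives were a pseudocount of 0.1, minima of 0.5 and 5 FPKM or none, 3 other scalings, summed rows per symbol, another class split and leaving out each rat. Exact zeros can be failed estimates. A separate animal per library was assumed, so SDs measure the spread between these samples.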

Additional observations from a re-analysis of the deposited data

How the results depend on the processing

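Of 218 values of class medians, counts and pair ratios recomputed under the alternatives, 212 kept the sign of a pair ratio, lay within 1.5 times a count or moved a median by less than the spread between rats. Part of the 218 could not change. Each member is on 1 row, so summing rows altered nothing, and a minimum cannot alter a pair ratio. The limit for medians was also wide, at an SD of 2.08 for the neuronal minus the ubiquitous median. A neuronal deviation that went from 0.66 to -0.30 in rat 19 without rat 35 counted as kept. The count of 212 is thus no measure of robustness. The sign of the class deviations changed in 1 of 33 neuronal values and 9 of 33 ubiquitous values. Over all alternatives the ubiquitous deviation was -0.090 to 0.097 in rat 19, -0.018 to 0.13 in rat 35 and -0.11 to 0.032 in rat 70. The neuronal minus ubiquitous median ranged over the settings that keep all rats from 0.25 to 1.19 in rat 19, from -3.61 to -2.68 in rat 35 and from 0.36 to 1.65 in rat 70. The ubiquitous deviation of rat 35 was -0.018 in place of 0.13 after rescaling to a sum of 1000000 without mitochondrial genes, which raised the median gene by 1.33, 1.14 and 1.38 in rats 19, 35 and 70. Rescaling to a sum of 1000000 raised it by 0.80, 0.85 and 0.96. Leaving out each rat in turn gave neuronal deviations of -0.30 to 1.32 for rat 19 and 0.30 to 1.65 for rat 70, ubiquitous deviations of -0.090 to 0.097 for rat 19, and counts past 2-fold of 13 to 35 for neuronal, 1 to 9 for ubiquitous and 16 to 52 for all members. It gave -1.57 to 0.079 for Syngr1 over Syngr2, turned in sign without rat 35 (0.079). The cause was not tested. Of 770 recomputed ranges of single members, 89 moved by more than their SD, 51 of them without rat 35. No paired analysis was possible because the labels give 1 group whose animal numbers are not shared. With 3 rats, depth limits members below 1 FPKM.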

Other observations

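Some members that set rat 70 apart from rat 19 are known from fast-spiking parvalbumin interneurons, and a marker of these cells was looked up after the members' values were seen. Pvalb, the parvalbumin gene, was at 17.8, 4.41 and 75.5 FPKM in rats 19, 35 and 70, and Kcnc1, a fast potassium channel gene of these neurons, at 9.15, 0.63 and 23.9. Syt2, Vamp1 and Cplx1 had the same order of rats. They are among the 30 of 38 neuronal members that were highest in rat 70, as were 10 of 12 pan-neuronal markers. All members and markers of both sets were lowest in rat 35. Nxph4, a gene of the deepest cortical layer like Cplx3, was at 3.04, 0.31 and 0.52 FPKM, the same rat being highest as for Cplx3. Ctgf, another gene used for that layer but also made by vessels, was at 19.04, 21.0 and 20.1 and did not share the order. The part of these interneurons or of that layer in the members' values was not tested.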
